A study of Homo sapiens with 12 samples.

Results

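AP-1 is a transcription factor assembled from pairs of FOS, JUN and ATF proteins, and its subunits were followed here through long-term culture of a bile duct cancer line in lactate, in acid or in both. FOSL1, FOSL2, FOS, FOSB, JUN, JUNB, JUND and ATF3 were looked up by symbol in the 3 deposited tables. Of these 8 genes, 4 were found among the 5308 genes that stand in at least 1 table. FOSL1 and ATF3 were in all 3 tables, and JUN and JUNB were in the lactic acidosis and lactosis tables. FOSL2, FOS, FOSB and JUND were in none, and since the tables list only the genes that the authors called, this does not show that those 4 genes were silent or unchanged.

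The cells were KKU-213A, an established human cholangiocarcinoma line of mixed papillary and non-papillary type. Lactic acidosis cells grew at pH 6.7 with L-lactate and HEPES, a buffer, at 25 mM each. Lactosis cells grew at pH 7.4 with 25 mM L-lactate, acidosis cells at pH 6.5 with 25 mM HEPES, and control cells in the low-glucose medium on which all of the media are based. Treated cultures were used after 5 or more passages in the medium named, and each of the 4 groups had 3 libraries of poly(A)-selected RNA. The labels name no number of passages for control cells, so treatment and time in culture cannot be told apart, nor can acid and HEPES. The labels do not tie the libraries to cultures, so p-values cover library spread alone, and that spread may be technical.

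FOS proteins cannot pair with each other. They bind DNA as partners of JUN proteins, through a leucine zipper that joins the pair and a basic region that touches the DNA. FOS, FOSB, JUN, JUNB and the zinc finger gene EGR1 are early genes that respond within minutes to growth factors. FOSL1, which encodes FRA-1, instead stays high under sustained signalling through the ERK kinases and in turn acts on its own gene. In epithelial tumours FRA-1 is known for its part in invasion, and ATF3 is a stress-induced member that can repress its targets.

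The values are the authors' length-scaled expression values per library, so levels of different genes can be set side by side, but whether they are TPM or FPKM is not stated and read depth is unknown. Control replicate 1 lies low as a whole. Weights fitted to the authors' group means put 1 unit of it at 1.0000, against 0.8011 and 0.7763 for control replicates 2 and 3 in the lactic acidosis table. Rescaling by these weights lowers the median log2 difference of all listed genes between lactic acidosis and control by 0.11. Lactic acidosis replicate 2 and lactosis replicate 2 stood apart for muscle genes. The 7 muscle markers listed in lactosis summed to 0.49, 56.0 and 0.53 in the lactosis libraries, against 0.88, 0.66 and 1.5 for the same genes in control. In lactic acidosis, 6 muscle markers were listed higher and summed to 1.54, 32.89 and 0.95, against 0.81, 0.57 and 1.27 in control, and TNNI2, TNNT3 and MB were listed lower and summed to 17.18, 22.56 and 16.05, against 37.61, 49.28 and 56.53 in control. No muscle marker was listed in acidosis, and no fibroblast marker of 9 in any table. Of 8 leucocyte markers CD68, a lysosomal protein of macrophages, was listed, at 46.1 ± 3.59 in lactic acidosis and 30.3 ± 2.69 in control (SD, n = 3; adjusted p = 0.00482 by limma). Of 12 biliary epithelial markers 4 were listed, in both directions. In lactic acidosis SOX9 averaged 34.1 ± 1.44, against 11.97 ± 5.47 in control (SD, n = 3, adjusted p = 0.00183 by limma). CDH1 averaged 108 ± 9.26 in lactic acidosis, against 81.3 ± 11.2 in control (SD, n = 3, adjusted p = 0.0288 by limma). In acidosis CDH1 was listed lower, at 63.4 ± 13.6 (SD, n = 3), and did not pass (adjusted p = 0.0878 by limma). MUC1 averaged 0.337 ± 0.0115 in lactic acidosis and 0.797 ± 0.176 in lactosis, against 1.97 ± 0.488 in control (SD, n = 3; adjusted p = 0.000449 and 0.0063 by limma). KRT19, a keratin of bile duct cells, averaged 2892 ± 258 in lactic acidosis and 2809 ± 74.3 in lactosis, against 3791 ± 869 in control, and did not pass (SD, n = 3; adjusted p = 0.09 and 0.0652 by limma). The part of these genes in the results below was not tested beyond leaving out libraries.

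FOSL1 was the subunit that rose in all 3 media, most in lactic acidosis and least in acidosis. The gene lies on the minus strand of chromosome 11 from 65892049 to 65900573 (GENCODE 29, GRCh38), overlaps no other annotated gene, and none of 40 windows of 75 bases along its longest transcript occurs in a transcript of another gene. FOSL1 stood at 641.69, 726.48 and 705.17 in the lactic acidosis libraries, against 56.48, 114.58 and 144.13 in the control libraries. In lactosis it stood at 349.75, 333.84 and 378.6, and in acidosis at 246.97, 244.7 and 240.72. The 4 groups did not overlap at any point, and control replicate 1 was the lowest of the 12 libraries. In bulk RNA, more transcript per cell and more cells with the transcript cannot be told apart.

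**Figure D1:**
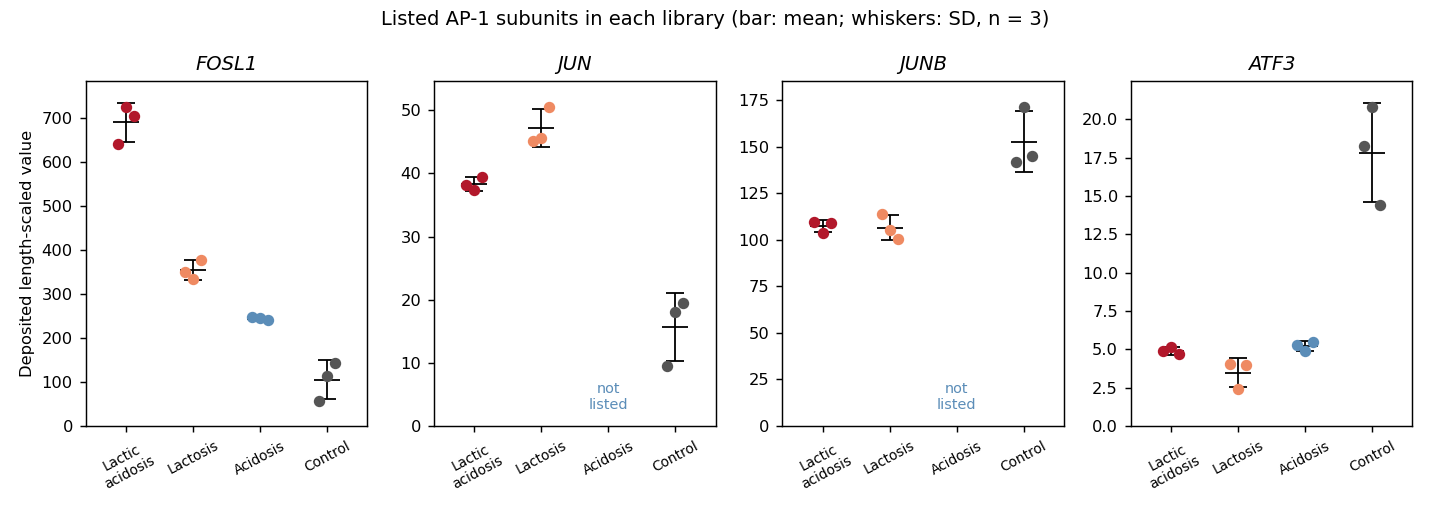
Deposited length-scaled value (vertical axis, from 0, on a separate scale for each gene) of the 4 listed AP-1 subunits in each library, with groups along the horizontal axis; points are libraries, the bar is the mean and the whiskers are the SD (n = 3). FOSL1 steps down over lactic acidosis, lactosis, acidosis and control, while ATF3 lies at 5.48 or below in every treated library and at 14.38 or above in control; JUN and JUNB are not in the acidosis table.

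By limma on log2(value + 1), FOSL1 was 2.81 higher on the log2 scale in lactic acidosis than in control (SE 0.29, 95% interval 2.14 to 3.47, adjusted p = 0.000153). In lactosis the log2 difference from control was 1.84 (SE 0.29, adjusted p = 0.00137 by limma), and in acidosis it was 1.31 (SE 0.25, adjusted p = 0.00172 by limma). Genes were listed because they differed between these same libraries, so these tests describe the spread and are not independent evidence: 86.1% of all listed genes passed in lactic acidosis (55.3% higher, 30.8% lower), 77.7% in lactosis (46.5% higher, 31.2% lower) and 60.0% in acidosis (35.9% higher, 24.2% lower). Of these subunits, 2 passed higher and 2 lower in each lactate medium, and 1 each way in acidosis. Groups that do not overlap were as common, at 90.2% of genes in the lactic acidosis table, 84.0% in the lactosis table and 75.5% in the acidosis table. The comparisons with control share the same 3 control libraries. Without control replicate 1 the log2 differences were 2.42, 1.45 and 0.92 for lactic acidosis, lactosis and acidosis, and without the replicates with more muscle transcripts they were 2.77 in lactic acidosis and 1.88 in lactosis; FOSL1 passed limma in each of these fits. In the authors' deposited tables, whose fold changes rest on size factors, the log2 fold change of FOSL1 was 2.65 in lactic acidosis and 1.21 in acidosis. Among genes listed higher it ranked 50 of 2521 in lactic acidosis, 51 of 1830 in lactosis and 37 of 1051 in acidosis, by the authors' deposited fold changes.

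The treated groups were then set against each other, over the genes listed in both tables. FOSL1 was 0.96 higher on the log2 scale in lactic acidosis than in lactosis (SE 0.087, 95% interval 0.77 to 1.16, adjusted p = 5.07e-05 by limma). It was 1.50 higher in lactic acidosis than in acidosis (SE 0.075, adjusted p = 1.82e-06 by limma) and 0.53 higher in lactosis than in acidosis (SE 0.073, adjusted p = 0.00203 by limma). Between lactic acidosis and lactosis 20.4% of all genes tested were called (15.7% higher, 4.78% lower) and 40.9% had groups that did not overlap. Between lactic acidosis and acidosis 48.8% were called (38.7% higher, 10.0% lower) and 58.2% did not overlap, and between lactosis and acidosis 23.9% were called (16.4% higher, 7.50% lower) and 39.7% did not overlap. All neighbours in the order of FOSL1 levels therefore differed beyond their spread. Acidosis medium was the more acid of the 2 acid media, and acidosis cells had the lower FOSL1 of the 2 groups. These groups also differed in lactate, and the part of pH in the order was not tested.

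Lactate and acid together were compared with the sum of their separate log2 differences. For FOSL1 the contrast of lactic acidosis minus lactosis against acidosis minus control was -0.35 (SE 0.32, 95% interval -1.03 to 0.34, adjusted p = 0.377 by limma over the 1042 genes in all tables, 35.9% of which were called, 20.0% higher and 15.9% lower). Without control replicate 1 the value was 0.04. The data thus leave the sign of a departure from additivity on the log2 scale undetermined. The 2 acid media differed in pH, so the contrast is of the media as used.

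JUN, the main DNA-binding partner of FOS proteins, rose in both lactate media. JUN lies on chromosome 1 from 58780788 to 58784327 and overlaps no other annotated gene. Its level was 38.15, 37.33 and 39.49 in lactic acidosis and 45.14, 45.65 and 50.58 in lactosis, against 9.5, 18.03 and 19.52 in control. Every lactate library exceeded the highest control library, and control replicate 1 was again the lowest. The log2 difference from control was 1.30 in lactic acidosis (SE 0.24, adjusted p = 0.00177 by limma) and 1.59 in lactosis (SE 0.24, adjusted p = 0.00108 by limma). JUN and FOSL1 thus took opposite orders in the 2 lactate media. JUN was 0.29 lower on the log2 scale in lactic acidosis than in lactosis (SE 0.081, 95% interval -0.47 to -0.11, adjusted p = 0.0298 by limma). This call on JUN was lost without any 1 of the 3 lactic acidosis libraries or without lactosis replicate 1 or 3, with adjusted p between 0.0655 and 0.0929, while the log2 difference stayed between -0.32 and -0.24 over all libraries left out.

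JUNB, a JUN protein that often opposes JUN at AP-1 sites, fell by less in both lactate media. It stood at 109.53, 103.5 and 109.17 in lactic acidosis and at 113.97, 105.1 and 100.56 in lactosis, against 141.58, 171.6 and 145 in control. Neither lactate group overlapped control, and the lactate groups overlapped each other. The log2 difference from control was -0.50 in lactic acidosis (SE 0.13, adjusted p = 0.009 by limma) and -0.51 in lactosis (SE 0.14, adjusted p = 0.0122 by limma). In lactosis the call was lost without control replicate 2 or without lactosis replicate 3, with adjusted p of 0.0542 and 0.0538. Between the lactate media the log2 difference was 0.01 (SE 0.082, 95% interval -0.17 to 0.19, adjusted p = 0.926 by limma). JUNB, on the plus strand of chromosome 19 from 12791496 to 12793315, lies inside the span of HOOK2 on the opposite strand, and 259 of its 1820 exonic bases are also exonic in HOOK2. HOOK2 was listed lower in lactic acidosis too, at 37.04, 29.38 and 32.88 against 61.85, 61.47 and 46.51 in control. Whether reads were counted by strand is not given in the sources used here, and the part of HOOK2 in the JUNB values was not tested.

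ATF3 fell in all 3 media. The gene lies on chromosome 1 from 212565334 to 212620777. It stood at 4.86, 5.15 and 4.67 in lactic acidosis, 4.06, 2.4 and 4 in lactosis and 5.29, 4.88 and 5.48 in acidosis, against 18.27, 20.82 and 14.38 in control. Every treated library lay below the lowest control library, and lactosis replicate 2 was the lowest of all. The log2 difference from control was -1.66 in lactic acidosis (SE 0.16, adjusted p = 9.41e-05 by limma), -2.08 in lactosis (SE 0.20, adjusted p = 0.000149 by limma) and -1.58 in acidosis (SE 0.17, adjusted p = 1.38e-05 by limma). At this level the added 1 shrinks the differences, and the authors' deposited tables gave log2 fold changes of -2.01, -2.40 and -1.80 for the 3 media in the same order.

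Among the treated groups ATF3 differed less. It was 0.08 lower on the log2 scale in lactic acidosis than in acidosis (95% interval -0.24 to 0.09, adjusted p = 0.422 by limma) and 0.42 higher in lactic acidosis than in lactosis (95% interval 0.11 to 0.73, adjusted p = 0.0585 by limma). It was 0.49 lower in lactosis than in acidosis (adjusted p = 0.0473 by limma), a call that was lost without lactosis replicate 1 or without any 1 of the acidosis libraries, with adjusted p between 0.0548 and 0.109. For ATF3 the log2 differences of lactosis and acidosis did not add up to that of lactic acidosis. The contrast was 2.00 (SE 0.22, 95% interval 1.53 to 2.47, adjusted p = 1.44e-05 by limma). ATF3 was low in every treated library, where the added 1 shrinks a further fall. With a pseudocount of 0.1 the contrast was 2.25, and the part of the low level in it was not tested further. The contrasts of FOSL1 and ATF3 were not tested against each other.

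**Figure D2:**
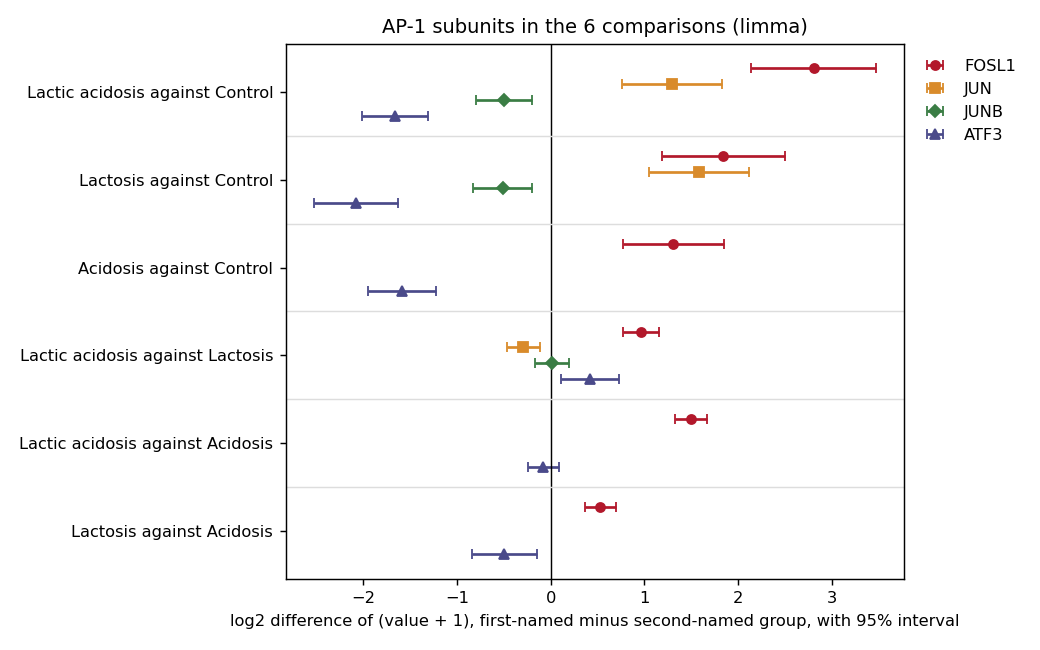
log2 difference of (value + 1) by limma (horizontal axis, positive where the first-named group is higher) for FOSL1, JUN, JUNB and ATF3 in 6 comparisons (rows), with 95% intervals as whiskers. FOSL1 lies above 0 in all 6 comparisons, from 0.53 to 2.81, while ATF3 lies between -2.08 and -1.58 against control; JUN and JUNB have no value where acidosis is compared.

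The listed subunits thus changed in rank. In lactic acidosis and lactosis libraries FOSL1 had the highest length-scaled level, then JUNB, JUN and ATF3. JUNB was highest in every control library, followed by FOSL1. FOSL1 made up 82.1 ± 1.24% of the summed level of these 4 subunits in lactic acidosis and 69.2 ± 1.49% in lactosis, against 35.0 ± 9.81% in control (SD, n = 3). JUNB made up 12.8 ± 0.967%, 20.9 ± 1.80% and 53.5 ± 8.92% in the same order of groups. JUN had 4.56 ± 0.264% in lactic acidosis, 9.22 ± 0.364% in lactosis and 5.27 ± 0.950% in control. These shares leave out FOS, FOSB, FOSL2 and JUND, whose levels were not analysed here, and no share can be given for acidosis.

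The ratio of FOSL1 to JUNB, which does not depend on the scale of a library, was 5.859, 7.019 and 6.459 in lactic acidosis and 3.069, 3.176 and 3.765 in lactosis, against 0.3989, 0.6677 and 0.994 in control. No control library had more FOSL1 than JUNB. FOSL1 exceeded JUN 16.82-fold, 19.46-fold and 17.86-fold in lactic acidosis libraries, 7.748-fold, 7.313-fold and 7.485-fold in lactosis libraries, and 5.945-fold, 6.355-fold and 7.384-fold in control libraries. The lactosis and control ranges of FOSL1 over JUN overlapped. FOSL1 over ATF3 ranged from 132.0 to 151.0 in lactic acidosis, from 86.15 to 139.1 in lactosis and from 43.93 to 50.14 in acidosis, against 3.091 to 10.02 in control.

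**Figure D3:**
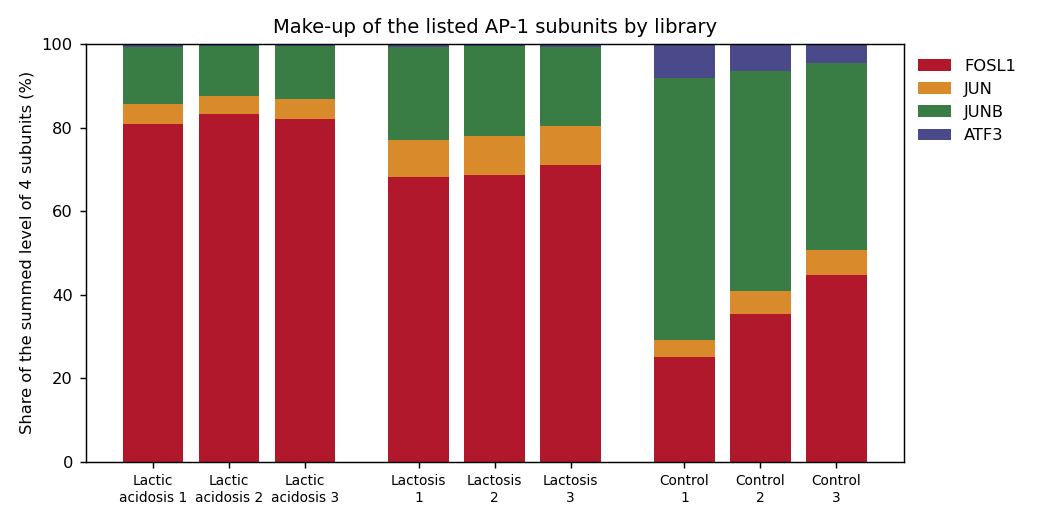
Share of the summed length-scaled level of FOSL1, JUN, JUNB and ATF3 (vertical axis, percent, stacked bars) in each library of lactic acidosis, lactosis and control. FOSL1 takes 80.79% to 83.27% in lactic acidosis and 68.19% to 70.93% in lactosis, against 25.01% to 44.62% in control, where JUNB takes 44.89% to 62.69%.

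AP-1 proteins bind the 7 letters TGANTCA and, in pairs with ATF proteins, 8-letter forms TGANNTCA, which include the cyclic AMP element TGACGTCA. Promoter sequences from RefSeq (GRCh38.p14, 250 bases before to 50 after the start) were matched for 7 of the 8 subunits, and not for FOSL1. TGANTCA, whose reverse complement has the same form, stood in the first listed promoter of 7.76% of 27305 genes, and TGANNTCA in 11.8%. JUN and ATF3, which moved in opposite directions in the lactate media, both carry the 8-letter form TGACATCA, ATF3 at its first listed start. It begins 67 bases before the start of JUN and 123 bases before the first listed start of ATF3, and ATF3 also holds TGATGGAA, of the form TGATGNAA that stood in 3.67% of promoters searched on both strands. These 2 promoters are shown to set the shared letters side by side, with matches in capitals, from chr1:58783998-58784297 on the minus strand for JUN and chr1:212565157-212565456 on the plus strand for ATF3.
JUN: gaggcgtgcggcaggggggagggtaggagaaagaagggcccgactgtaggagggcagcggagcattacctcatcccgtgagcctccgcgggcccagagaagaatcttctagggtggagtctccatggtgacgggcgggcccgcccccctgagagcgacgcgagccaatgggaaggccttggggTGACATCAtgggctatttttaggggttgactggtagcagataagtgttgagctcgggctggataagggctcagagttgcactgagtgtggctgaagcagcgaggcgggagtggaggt
ATF3: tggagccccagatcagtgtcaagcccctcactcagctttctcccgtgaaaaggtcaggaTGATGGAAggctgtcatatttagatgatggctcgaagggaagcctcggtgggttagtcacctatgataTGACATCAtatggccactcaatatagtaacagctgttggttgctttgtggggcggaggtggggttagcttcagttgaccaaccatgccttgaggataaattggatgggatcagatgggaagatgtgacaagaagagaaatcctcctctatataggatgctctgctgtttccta
Neither of these promoters, nor that of JUNB, holds TGANTCA, and of the 7 subunits FOSL2 alone does. The promoter at the second listed start of ATF3 holds none of the forms searched here, and which start was used was not tested. A match describes letters in this window and is not a measured site.

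Genes known as AP-1 targets were mostly higher in the same libraries. Of 38 such genes, 25 were listed in lactic acidosis, 22 higher and 3 lower, and all 25 passed limma in that direction. Passing was common, at 86.1% of all genes listed there (55.3% higher, 30.8% lower). The median log2 fold change of the 25 was 1.20 in the authors' deposited table, against 0.37 for all listed genes, of which 58.9% were higher and 41.1% lower. In lactosis 15 were higher and 4 lower with a median of 0.73, against 0.35 for all listed genes, of which 59.3% were higher and 40.7% lower, by the authors' deposited table. In acidosis 9 were higher and 2 lower with a median of 0.53, against 0.32 for all, of which 61.1% were higher and 38.9% lower, by the authors' deposited table. Each median covers the targets listed in that medium. Over the 7 targets listed in all 3 media the medians were 1.52, 0.90 and 0.53 in lactic acidosis, lactosis and acidosis. The targets were chosen with earlier results of these data known, and nothing particular to them is claimed.

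SPHK1, which makes the signalling lipid sphingosine 1-phosphate, averaged 80.5 ± 13.1 in lactic acidosis and 98.3 ± 3.98 in lactosis, against 16.2 ± 1.12 in control (SD, n = 3). Between the lactate media its log2 difference was -0.30 (SE 0.11, adjusted p = 0.0859 by limma). EREG, an EGFR ligand, averaged 282 ± 44.1 in lactic acidosis and 119 ± 10.0 in acidosis, against 58.6 ± 10.2 in control (SD, n = 3), and was not listed in lactosis. The members listed lower in lactic acidosis, named after their values were seen, were MMP1 and MMP13, both collagenases, and CLCA2, a gene of squamous epithelium. MMP1 averaged 1.79 ± 0.436 in lactic acidosis and 4.52 ± 0.326 in control, and MMP13 0.547 ± 0.0850 and 2.64 ± 1.31 (SD, n = 3).

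Over genes listed in both tables, 10 of 10 targets were called higher in lactic acidosis than in acidosis, and 9 of 18 were called higher and 2 lower in lactic acidosis than in lactosis. Of all genes tested, 38.7% were called higher in lactic acidosis than in acidosis, and 15.7% were called higher and 4.78% lower in lactic acidosis than in lactosis. The medians were 1.02 and 0.43 on the log2 scale, against 0.15 and 0.11 for all genes tested. The targets lower than in lactosis were FGFBP1, which releases growth factors from the matrix, and CLCA2. FGFBP1 averaged 124 ± 7.10 in lactic acidosis and 165 ± 8.26 in lactosis (SD, n = 3). Its log2 difference was -0.41 (adjusted p = 0.00665 by limma), the order of JUN and not of FOSL1. The part of either subunit in this order was not tested. PLAU and IL1A, named because they alone of these targets were listed in opposite directions, were higher in lactic acidosis and lower in lactosis. PLAU, the urokinase gene, stood at 443.76, 484.67 and 446.31 in lactic acidosis, 175.86, 139.82 and 168.51 in lactosis and 231.43, 199.6 and 186.01 in acidosis, against 300.79, 341.75 and 334.32 in control. Lactic acidosis libraries of PLAU were thus above control and those of both single media below it.

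Promoters were matched for 27 of the 38 targets, and 10 of them hold TGANTCA, or 37% against 7.76% of all promoters. The list was made of genes already known as AP-1 targets, so this share describes the list and is no result of these data. Across all listed genes the letters were no commoner than elsewhere: 4.88% of 1945 promoters of genes listed higher in lactic acidosis held them, against 5.8% of 1275 listed lower. Of the 10 targets with these letters, MMP7, MMP10, CXCL8 and IVL were in none of the tables, CLCA2 was listed lower in both lactate media, and IL1A, with 2 matches, was listed lower in lactosis. The promoters of PLAUR, the urokinase receptor, and of SPHK1 are shown as targets that rose and carry the letters TGAGTCA, in capitals. They lie at chr19:43670120-43670419 on the minus strand and chr17:76382954-76383253 on the plus strand of GRCh38.p14, and the letters begin 186 and 6 bases before the start.
PLAUR: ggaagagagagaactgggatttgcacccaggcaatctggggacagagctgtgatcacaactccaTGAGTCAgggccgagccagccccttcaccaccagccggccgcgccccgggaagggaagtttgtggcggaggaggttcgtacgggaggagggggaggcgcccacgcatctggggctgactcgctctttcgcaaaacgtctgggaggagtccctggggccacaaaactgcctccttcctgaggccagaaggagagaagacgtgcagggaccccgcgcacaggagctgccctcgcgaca
SPHK1: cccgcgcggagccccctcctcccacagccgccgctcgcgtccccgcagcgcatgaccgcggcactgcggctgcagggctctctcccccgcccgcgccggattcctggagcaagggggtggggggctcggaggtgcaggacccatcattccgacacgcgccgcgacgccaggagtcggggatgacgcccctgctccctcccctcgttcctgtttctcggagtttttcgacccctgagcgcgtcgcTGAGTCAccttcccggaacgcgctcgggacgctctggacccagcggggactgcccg
PLAUR stood at 54.45, 53.57 and 49.71 in lactic acidosis, 43.71, 46.99 and 44.83 in lactosis and 24.12, 26.91 and 28.35 in acidosis, against 13.63, 14.24 and 14.16 in control. Its groups did not overlap, but the log2 difference of lactic acidosis from lactosis, 0.21, did not pass (adjusted p = 0.0822 by limma), and 40.9% of all genes tested had groups that did not overlap there. PLAUR and SPHK1 were chosen for display after their values were seen.

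The genes that feed AP-1 were described next. Of 31 genes of the MAP kinase cascades, 10 were listed in lactic acidosis, 8 higher and 2 lower, of which 7 and 2 passed limma. In lactosis 6 were listed higher and 3 lower, with 4 and 3 past limma, and in acidosis 5 higher and none lower, with 2 past limma. Among all listed genes 58.9%, 59.3% and 61.1% were listed higher in these media, and 55.3%, 46.5% and 35.9% passed limma as higher. In the same order 41.1%, 40.7% and 38.9% were listed lower, and 30.8%, 31.2% and 24.2% passed limma as lower. ELK3, an ETS factor that ERK kinases activate, averaged 56.4 ± 6.06 in lactic acidosis cells, 38.3 ± 2.23 in lactosis cells and 31.1 ± 2.24 in acidosis cells, against 19.8 ± 4.84 in control (SD, n = 3). MAP2K3, which activates p38 kinases, averaged 85.8 ± 4.71, 63.5 ± 1.36 and 55.6 ± 2.61 in the same media, against 29.9 ± 11.1 in control (SD, n = 3). MAP2K4, which activates JNK and p38 kinases, had log2 differences from control of 0.89 in lactic acidosis (adjusted p = 0.00198 by limma), 0.45 in lactosis (adjusted p = 0.0395 by limma) and 0.40 in acidosis (adjusted p = 0.0644 by limma). These genes were named by rule, and all were listed higher. The members listed lower were MAP2K5 and MAP2K6 in lactic acidosis, and BRAF, MAP2K5 and MAP3K8 in lactosis. MAP2K6, at low levels, averaged 0.207 ± 0.0635 in lactic acidosis and 2.27 ± 1.14 in control (SD, n = 3). The kinases ERK1 and ERK2 themselves were in none of the tables, and activity of a kinase cannot be read from its transcript.

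Among 23 genes whose transcription follows ERK signalling, 12 were listed higher and 1 lower in lactic acidosis, 8 higher and 2 lower in lactosis, and 7 higher and none lower in acidosis, with 12 and 0, 8 and 1, and 6 and 0 past limma. For comparison, 58.9%, 59.3% and 61.1% of all listed genes were higher in these media, and 41.1%, 40.7% and 38.9% were lower. Past limma, 55.3%, 46.5% and 35.9% of all listed genes were higher, and 30.8%, 31.2% and 24.2% were lower. DUSP4, a phosphatase that switches ERK off in the nucleus, stood at 241.77, 253.54 and 243.83 in lactic acidosis, 96.32, 79.65 and 92.35 in lactosis and 80.16, 69.68 and 64.37 in acidosis, against 52.88, 50.81 and 56.33 in control. Lactic acidosis stood apart for DUSP4, at 1.46 above lactosis on the log2 scale (SE 0.090, adjusted p = 4.11e-06 by limma). CCND1, the cyclin D1 gene, which is on this list and on that of AP-1 targets, averaged 198 ± 5.53, 162 ± 22.0 and 94.4 ± 11.1 in lactic acidosis, lactosis and acidosis, against 52.8 ± 19.8 in control (SD, n = 3). SPRY4, an inhibitor of the same pathway, averaged 13.8 ± 1.40, 8.55 ± 1.35 and 6.55 ± 0.821 in these media, against 4.10 ± 1.26 in control (SD, n = 3). EGR1, an early gene as FOS is, was picked outside the naming rule. It was listed lower in lactic acidosis and lactosis but passed limma in neither, and the authors' deposited tables gave it log2 fold changes of -0.62 and -0.55. Others of this list went both ways. KLF6 (1.63 and 1.06) and MYC (0.63 and 0.55) were listed higher in these media by the authors' log2 fold changes and passed limma. EGR3 was listed lower in lactosis (-1.75) and passed limma.

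**Figure D4:**
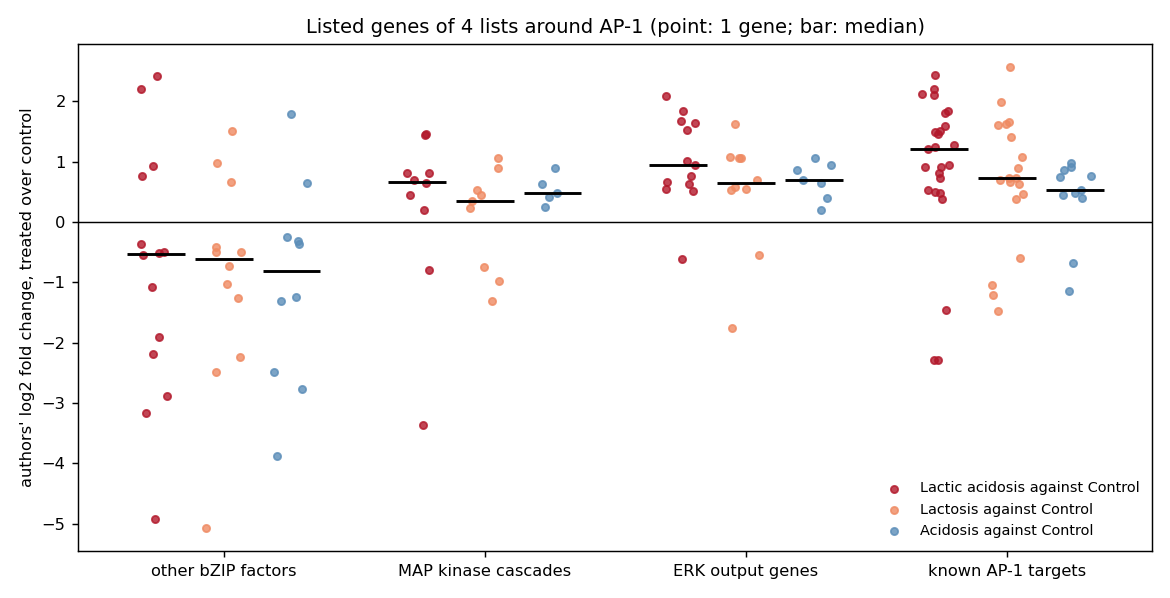
Authors' log2 fold change of treated over control cells (vertical axis) for the listed genes of 4 lists (horizontal axis), coloured by medium; each point is a gene and the bar is the median. Known AP-1 targets have medians of 1.20, 0.73 and 0.53 in lactic acidosis, lactosis and acidosis, and other bZIP factors have medians of -0.53, -0.61 and -0.80. Each median covers the genes listed in that medium, so the gene sets differ between media. Over the 8 other bZIP factors listed in all 3 media the medians were -1.21, -0.87 and -0.80. Over the 7 targets listed in all 3 they were 1.52, 0.90 and 0.53.

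Other factors with the same kind of zipper went mostly the other way. Of 38 such genes, 4 were listed higher and 10 lower in lactic acidosis, 3 higher and 9 lower in lactosis, and 2 higher and 8 lower in acidosis. By limma 4 and 9, 3 and 8, and 2 and 5 of these passed. Among all listed genes 41.1%, 40.7% and 38.9% were listed lower in these media, and 30.8%, 31.2% and 24.2% passed limma as lower. In the same order 58.9%, 59.3% and 61.1% were listed higher, and 55.3%, 46.5% and 35.9% passed limma as higher. BACH2, a repressor that pairs with small MAF proteins, stood at 2.6, 2.64 and 2.58 in lactic acidosis and 0.87, 0.72 and 1.15 in lactosis, against 0.28, 0.57 and 0.53 in control. NFE2L3, a relative of NRF2, averaged 35.6 ± 1.89 in lactic acidosis and 30.7 ± 2.00 in acidosis, against 19.7 ± 4.47 in control (SD, n = 3). TEF, an activator under clock control, averaged 2.09 ± 0.110 in lactic acidosis cells, 3.65 ± 0.398 in lactosis cells and 3.11 ± 0.511 in acidosis cells, against 7.30 ± 1.21 in control (SD, n = 3).

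BATF3 and JDP2, both of which pair with JUN proteins, were named after their values were seen. BATF3, which lies at low levels here, stood at 6.79, 5.74 and 6.72 in lactic acidosis, 3.53, 2.65 and 5.2 in lactosis and 4.28, 3.26 and 5.82 in acidosis, against 0.93, 1.86 and 1.01 in control. JDP2, a repressor of AP-1 sites, stood at 0.32, 0.69 and 0.36 in lactic acidosis, 0.8, 1.05 and 0.55 in lactosis and 0.66, 0.46 and 0.53 in acidosis, against 4.22, 4.73 and 2.22 in control. Neither gene had a treated library within the control range. The same held for 90.2%, 84.0% and 75.5% of all genes listed in lactic acidosis, lactosis and acidosis. The log2 difference from control was 1.73 for BATF3 and -1.66 for JDP2 in lactic acidosis (adjusted p = 0.000132 and 0.000432 by limma). Both genes lie low, where the added 1 shrinks differences, and the authors' deposited log2 fold changes were 2.20 and -3.17. Of 7 genes that act on the turnover of AP-1 proteins, UBE2O was listed in lactic acidosis and ITCH in lactosis, and FBXW7 and COP1 were in none of the tables.

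Of 886 genes that were in all 3 tables with a group mean of at least 10, those whose log2 values followed FOSL1 most closely over the 12 libraries were DDX47, ALDH1A3, CSNK1E, NUP93 and ARNTL2, with Pearson's r of 0.993, 0.990, 0.990, 0.989 and 0.989. DDX47 is an RNA helicase of ribosome assembly, ALDH1A3 makes retinoic acid, CSNK1E is a casein kinase, NUP93 a nucleoporin and ARNTL2 a clock factor. The changes of these genes were of unlike size: DDX47 averaged 171 ± 5.94 in lactic acidosis and 105 ± 14.6 in control, and ALDH1A3 821 ± 30.0 and 172 ± 80.9 (SD, n = 3). Close likeness was common, as 397 of the 886 genes had an r above 0.9 with a median of 0.885, and the libraries share the low scale of control replicate 1. RILP, NEU1 and OSER1-AS1 were least alike, with r of -0.976, -0.952 and -0.952. ATF3 ranked 826 with an r of -0.781.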

How the data were processed

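RNA of 12 libraries (4 groups of 3) was read by the submitters as single-end reads of 75 nt, per the labels' protocols, and aligned with STAR to hg38, per the submitters' processing notes; the counting tool is not given in the sources used here. The authors deposited 3 tables, each of 1 treated group against control, with EBSeq column names. The deposited per-library values are a length-scaled signal, and the authors' group means are a signal of counts divided by size factors. Each deposited fold change is a ratio with control on top, inverted here. Every listed gene has a deposited posterior probability of equal expression under 0.05. Control values were equal in all tables (largest difference 0).

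Two-sided limma tests (version 3.58.1, under R 4.3.3) were run on the log2 of value + 1 with no low-value filter, and p was adjusted by Benjamini-Hochberg over all genes listed in the table or tables concerned (4279, 3087 and 1721 against control). Fold changes on this scale understate the change of low genes. The fits were tested on simulated data. Members, lists and tests were chosen with earlier results of these data known. Besides the subunits, up to 3 genes per list were named by the authors' probability in lactic acidosis, and the 5 genes most and 3 least like FOSL1. The result of 1 gene that this rule names is not reported here. Alternatives were pseudocounts of 0.1 and 5, a minimum group mean of 1, a posterior probability under 0.01, library weights fitted to the authors' group means, a replicate block, and each library omitted in turn. Positions are from GENCODE 29. Tables were handled in Python 3.11.15 with pandas 2.3.3 and numpy 2.4.6, and figures drawn with matplotlib 3.10.9.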

Additional observations from a re-analysis of the deposited data

Results flagged for a closer look

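ATF3 was flagged because the log2 difference between acid and other media was unlike with and without lactate, by a test of the difference itself. With lactate, lactic acidosis was 0.42 above lactosis on the log2 scale, which did not pass (adjusted p = 0.0585 by limma). Without lactate, acidosis was 1.58 below control. The difference of these was 2.00 (SE 0.22, adjusted p = 1.44e-05 by limma, 12 libraries). Time in culture is not given for control cells, HEPES goes with acid, and the 2 acid media differed in pH. The contrast is therefore of the media as used, and the part of acid alone was not tested. Over 17 alternatives the difference ran from 1.38 to 2.25. ATF3 was low in every treated library, where the added 1 shrinks a further fall, and the part of this was not tested beyond the change of pseudocount. The genes tested were listed because they differed from control in each medium, and 35.9% of the 1042 were called, so a call of this kind is common among them.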

How the results depend on the processing

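Of 242 log2 differences of single subunits recomputed under the alternatives, 222 kept their direction and their side of the threshold. FOSL1 passed limma in every alternative of the 6 comparisons, and the ATF3 contrast of acid media with and without lactate in all 17, from 1.38 (pseudocount 5) to 2.25 (pseudocount 0.1). The FOSL1 contrast ran from -0.63 to 0.04 with a library left out, and turned sign without control replicate 1 (0.0425). With library weights the log2 difference of FOSL1 from control was 2.70, 1.80 and 1.30 in lactic acidosis, lactosis and acidosis.

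The number of subunits called between lactic acidosis and lactosis, 2, was 1 with the replicate number as a block, 3 with library weights, and from 1 to 2 with a library left out. JUN had adjusted p = 0.079 by limma under the block. JUNB turned to -0.052 with library weights and ran from -0.0275 to 0.062 with a library left out, without a call. ATF3 was called there with library weights (0.35, adjusted p = 0.046 by limma) and without lactosis replicate 1 or 3 (0.51 in both). Between lactosis and control the number called, 4, was 3 without control replicate 2 or lactosis replicate 3. Between lactosis and acidosis the number called, 2, was 1 with a pseudocount of 0.1, and from 1 to 2 with a library left out. The cause was not tested. Deviations of same-numbered libraries correlated from -0.387 to 0.217, the highest for replicate 2 of lactic acidosis and lactosis, which share the muscle transcripts. In no comparison were all 3 correlations above 0.1, so the numbers were not taken to pair the libraries.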

Other observations

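DBP and NFIL3 were picked from the zipper factors listed lower after their values were seen, so they stand for no group. DBP, an activator of the same family as TEF, stood at 2.25, 2.56 and 2.87 in lactic acidosis and 4.77, 5.11 and 3.89 in lactosis, against 10.73, 12.35 and 9.32 in control. NFIL3, a repressor that binds the same sites as DBP and TEF, stood at 18.3, 20.51 and 17.58 in lactic acidosis and 16.79, 13.86 and 14.41 in acidosis, against 40, 40.45 and 28.01 in control. No treated library of either gene reached the control range. Such a gap was common, at 90.2%, 84.0% and 75.5% of all genes listed in lactic acidosis, lactosis and acidosis. The log2 difference from control in lactic acidosis was -1.72 for DBP and -0.89 for NFIL3 (adjusted p = 6.57e-05 and 0.00212 by limma). DBP was 0.65 lower in lactic acidosis than in lactosis (adjusted p = 0.00213 by limma).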
